A study of Rattus norvegicus with 48 samples.

Results

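Messenger RNA of 30 genes for subunits of voltage-gated sodium channels, voltage-gated calcium channels and HCN channels was examined in 4 brain areas of adult male rats. The genes were taken by symbol (Scn with a number and a or b, Cacna1, Cacna2d, Cacnb and Hcn, without Cacng) from the probe sets whose annotation gives a single symbol, 31 probe sets in all. Where a gene had several, the one with the highest mean over all arrays stood for it. They are 30 of 14324 genes with such a probe set, namely 8 sodium alpha subunits, 3 sodium beta subunits, 9 pore-forming calcium alpha1 subunits, 3 alpha2delta subunits, 4 calcium beta subunits and 3 HCN subunits. The rule itself uses no measured value beyond the mean level. Only Scn3a had a further probe set, which also stood highest in amygdala (8.85 ± 0.26, SD, n = 12) and lowest in CA1 (8.25 ± 0.16, n = 11). A probe set annotated to both Scn3a and Scn9a was not used.

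The animals were outbred Sprague-Dawley males of the F3 generation, aged 120 days. Their F0 great-grandmothers had received either vinclozolin (Vin lineage; an anti-androgenic fungicide, 100 mg/kg per day by intraperitoneal injection) or the vehicle DMSO (Con lineage) on embryonic days 8 to 14, and the males studied came from litters of untreated F2 animals. A Con and a Vin male shared a cage as a dyad; some dyads were restrained for 6 hours a day on 21 days, postnatal days 23 to 43 (St), and the others were not (NSt). Punches of 2 mm were taken from basolateral amygdala, motor cortex, CA1 and CA3, each array measured RNA pooled from 4 animals, and the same 12 pools supplied all 4 areas, with 3 arrays for each area, lineage and stress condition.

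Sodium channel alpha subunits form the pore that carries the upstroke of the action potential, and beta subunits adjust their gating and anchoring. Calcium channel alpha1 subunits form L-type, P/Q-, N- and R-type or T-type channels, which couple depolarization to gene regulation, transmitter release or rhythmic firing, while alpha2delta and beta subunits carry them to the membrane. HCN channels open on hyperpolarization and set the resting conductance and rhythm of many neurons, pyramidal cells of cortex and hippocampus among them.

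Values are log2 levels from RMA, a method that corrects background, normalizes and summarises array probes, and a difference of 1 is a doubling. Of the 48 arrays, 46 were used. Left out were motor cortex NSt-Vin 2 and CA1 St-Con 3, whose values are the mean of their group's other arrays on all 27342 probe sets (within 0.0051), which leaves n = 2 there. The mean array median was 6.78 in motor cortex, 7.10 in amygdala, 7.13 in CA1 and 7.37 in CA3, and one constant per area (0.32 added in motor cortex, 0.27 subtracted in CA3) brought the areas to a common median; differences within an area stay as deposited. In bulk punches, fewer cells of a type and less RNA per cell cannot be told apart.

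The tissue markers matched the area labels in part. Fezf2, of deep cortical layers, had its highest mean in motor cortex, 8.88 ± 0.23 (SD, n = 11). Its values overlapped with those of CA1, where the highest array (given below) lay above that cortical mean. The mean of 3 CA1 pyramidal genes (Wfs1, Fibcd1, Pou3f1) lay between 7.62 and 8.78 in CA1 and between 8.21 and 9.07 in CA3. It did not separate these punches, and both ends of its range were higher in CA3, against the labels. Genes of CA3 pyramidal cells are not given here. CA1 and CA3 below therefore name the punches as labelled. Of 3 measured dentate granule cell genes, Prox1 and C1ql2 had their highest means in CA3 and were next in CA1, whereas Tdo2 was lower in CA3 than in CA1 (4.96 against 5.46). Rspo2, used as the amygdala marker, was lowest in the amygdala punches. The mean of 8 measured striatal genes (Drd1, Drd2, Adora2a and others) ran from 7.46 to 10.12 in amygdala against 7.08 to 7.32 in motor cortex, and choroid plexus genes stood high in 5 arrays. Amygdala and part of motor cortex shared a scan day, whereas CA1 and CA3 had their own, so area and scan day cannot be told apart for them. RNA of amygdala and motor cortex was prepared on one day and RNA of CA1 and CA3 on another, so in every contrast of a hippocampal area with the other areas the preparation day cannot be told apart from the area either.

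The start regions of 4 genes matched in RefSeq are shown: Scn8a and Hcn2, whose cortical arrays all lay above the other areas on the aligned scale, and Scn4b and Cacna2d2, which followed the striatal markers. Each window runs from 250 bases before to 50 bases after the RefSeq start on GRCr8, 5′ to 3′ along the gene, with CpG dinucleotides in capitals.
Scn8a, chr7:133860977-133861276, plus strand: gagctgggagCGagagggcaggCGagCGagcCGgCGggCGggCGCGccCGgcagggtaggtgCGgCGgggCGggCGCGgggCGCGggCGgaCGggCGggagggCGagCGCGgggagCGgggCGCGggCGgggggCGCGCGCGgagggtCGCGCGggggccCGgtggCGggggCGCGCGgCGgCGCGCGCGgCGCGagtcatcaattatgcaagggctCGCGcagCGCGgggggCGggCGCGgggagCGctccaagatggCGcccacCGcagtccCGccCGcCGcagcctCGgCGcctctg
Hcn2, chr7:10639408-10639707, minus strand: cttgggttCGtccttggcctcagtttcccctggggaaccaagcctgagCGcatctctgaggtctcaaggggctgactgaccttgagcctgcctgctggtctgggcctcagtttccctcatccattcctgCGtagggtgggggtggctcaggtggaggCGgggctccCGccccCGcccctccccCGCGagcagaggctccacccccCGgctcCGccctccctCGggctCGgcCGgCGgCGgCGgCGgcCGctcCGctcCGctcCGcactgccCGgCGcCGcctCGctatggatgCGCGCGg
Scn4b, chr8:54343623-54343922, plus strand: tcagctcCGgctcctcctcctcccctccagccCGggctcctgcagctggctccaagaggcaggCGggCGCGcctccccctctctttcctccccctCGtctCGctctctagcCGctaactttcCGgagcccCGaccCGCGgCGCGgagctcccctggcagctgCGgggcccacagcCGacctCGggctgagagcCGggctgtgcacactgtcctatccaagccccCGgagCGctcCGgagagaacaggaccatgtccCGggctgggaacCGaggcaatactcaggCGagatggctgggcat
Cacna2d2, chr8:116950856-116951155, plus strand: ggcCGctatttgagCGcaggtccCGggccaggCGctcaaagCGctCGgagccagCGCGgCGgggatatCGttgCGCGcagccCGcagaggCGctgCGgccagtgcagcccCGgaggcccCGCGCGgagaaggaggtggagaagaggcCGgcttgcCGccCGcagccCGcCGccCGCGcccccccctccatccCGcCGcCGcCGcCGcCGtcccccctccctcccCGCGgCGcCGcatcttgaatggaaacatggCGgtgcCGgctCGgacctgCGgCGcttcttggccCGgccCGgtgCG

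RefSeq start windows were matched for 21 of the 30 genes, giving 24 windows of 300 bases. Their median GC content was 70.8%, against 55.0% in the 21842 windows of protein-coding genes. The median number of CpG dinucleotides (CG, the same on both strands) was 26 against 11, and 13 of 24 windows held at least 20 of them against 32.5% of all. The windows shown hold 60 CpG at Scn8a, 44 at Cacna2d2, 28 at Hcn2 and 24 at Scn4b, whereas those of Scn7a and Scn2b hold 2. The GC box GGGCGG, searched on both strands and itself containing a CpG, occurred in 14 of 24 windows against 41.8% of all, and TATAAA in 0 of 24 against 13.0%. These are letter matches within the window only, and the CpG count did not go with one area pattern: CpG-rich Scn8a and CpG-poor Scn2a both had their highest mean in motor cortex on the aligned scale.

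Which of these channels differ between the areas was asked by comparing areas within the 12 pools (limma with the pool as a block, Benjamini-Hochberg adjustment over 27342 probe sets). Motor cortex had the highest mean for 18 of the 30 genes, against 42% of all probe sets, and amygdala the lowest for 16, against 44%. On the same scale all 4 astrocyte and all 4 microglia markers had their lowest mean in motor cortex (Aqp4 9.90 against 10.39 to 10.78 elsewhere), and Pvalb, of fast-spiking interneurons, had its highest (10.28 against 8.84 to 9.41). The other measured interneuron markers (Gad1, Gad2, Sst and Vip) are not given here, so Pvalb does not stand for interneurons as a group. The part of such cell content in the cortical excess was not tested. Area differences were the rule on these arrays: the F test over the 4 areas passed at an adjusted p of 0.05 for 28 of the 30 genes and for 96.4% of all probe sets, so passing says little by itself and size is given instead. Cacnb2 and Cacnb3 were the exceptions, chosen for mention after their values were seen. The distance between the highest and the lowest area mean had a median of 0.53 over the 30 genes and 0.37 over all probe sets, and it reached 1 in 5 genes (Scn4b, Scn3b, Scn1a, Cacnb4 and Cacna2d2) against 3.53% of all.

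**Figure D1:**
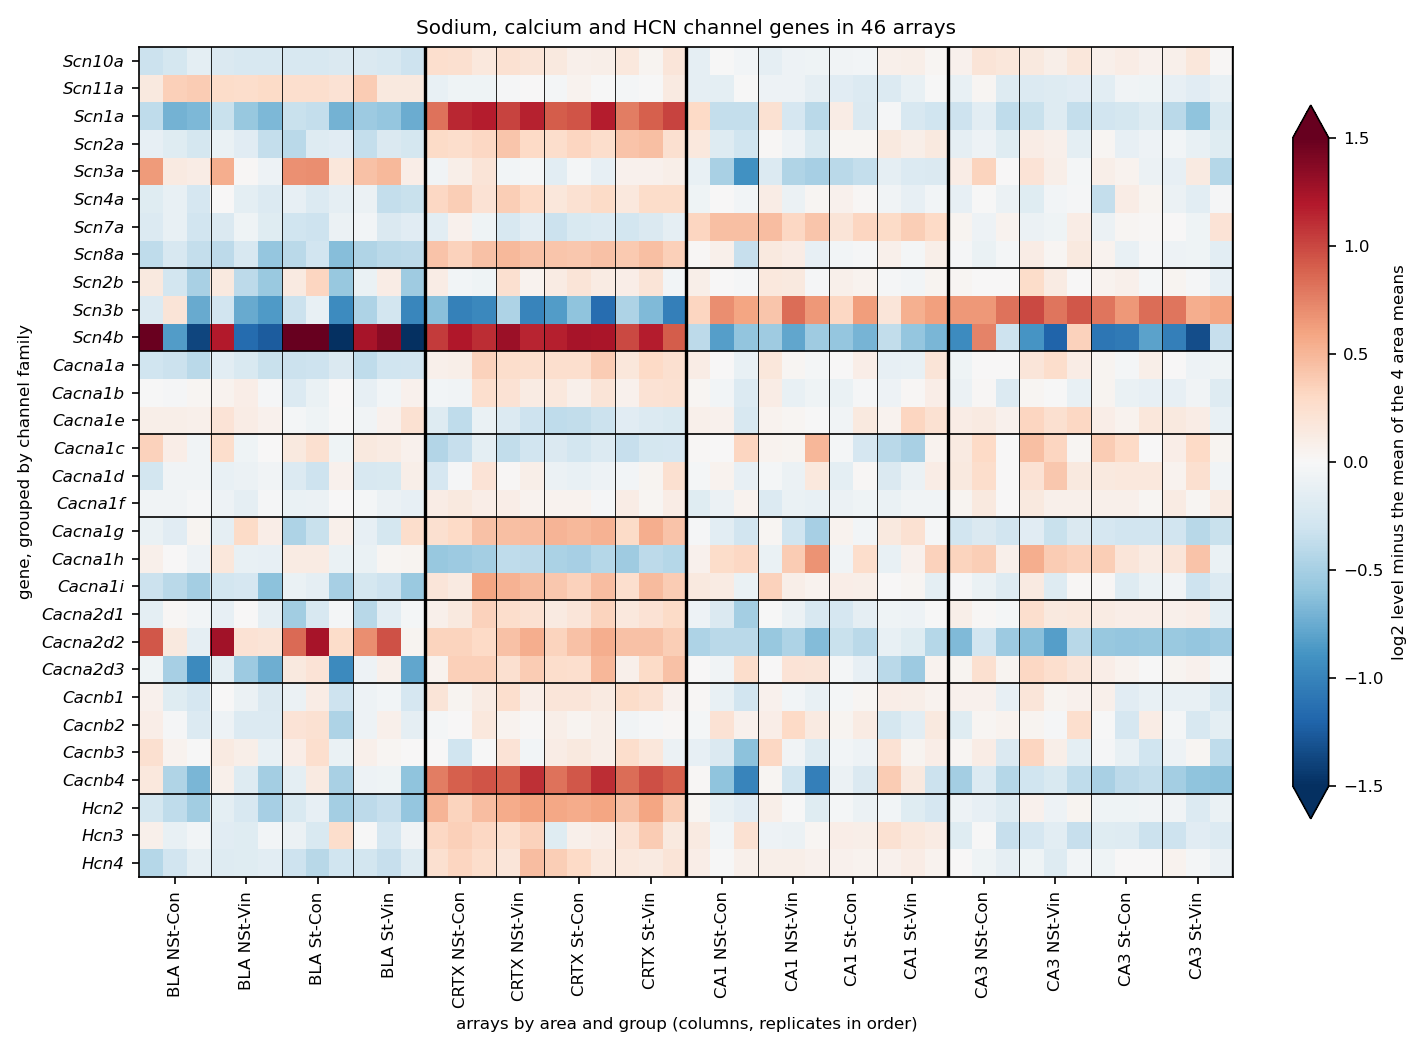
Log2 level of each of the 30 genes (rows, grouped by channel family) in the 46 arrays (columns, grouped by area, stress and lineage), as the difference from the mean of the gene's 4 area means; red is higher, blue lower, and the scale is cut at 1.5 in either direction. Scn1a and Cacnb4 are red across motor cortex, Scn3b is red in CA1 and CA3, and Scn4b alternates between arrays of the amygdala.

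In motor cortex, 7 genes had every array above every array of the other areas: Scn1a, Scn2a, Scn4a, Scn8a, Cacnb4, Hcn2 and Hcn4, against 5.48% of all probe sets. On the values as deposited, where motor cortex lies lower as a whole, only Scn1a and Cacnb4 did so (0.344% of all), and with quantile normalization over all arrays Scn1a, Scn8a, Cacnb4, Hcn2 and Hcn4 did (3.63% of all). Cacna1h had every cortical array below the rest on all 3 scales, alone on the aligned one (1.71% of all), with Cacna1e after quantile normalization (2.82%) and with Cacna1e, Cacna1c and Scn11a as deposited (21.4%). Scn11a alone lay wholly higher in amygdala (2.29% of all), and Scn10a and Cacna1a wholly lower there (6.62% of all). As deposited no gene lay apart in amygdala (1.18% of all higher, 2.65% lower). After quantile normalization Scn11a again lay wholly higher (3.48% of all) and Hcn4 alone wholly lower (3.16%). No gene had all its CA1 arrays or all its CA3 arrays apart from the rest on the aligned scale (at most 2.88% of all in any of these 4 counts), while as deposited Scn10a, Cacna1d, Cacna1f and Cacna2d1 lay wholly higher in CA3 (17.3% of all).

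Among the sodium alpha subunits, Scn1a, which encodes Nav1.1, the channel of fast-spiking interneurons, showed the largest cortical excess. Scn1a ran from 10.46 through a median of 10.71 to 10.88 in cortex, from 8.95 through a median of 9.12 to 9.36 in amygdala, from 9.29 through a median of 9.45 to 9.99 in CA1 and from 9.09 through a median of 9.40 to 9.54 in CA3, with means of 9.15 ± 0.16 in amygdala, 10.70 ± 0.15 in cortex, 9.56 ± 0.25 in CA1 and 9.39 ± 0.12 in CA3. No motor cortex array came within reach of another area, and amygdala was lowest. Motor cortex exceeded amygdala by 1.55 ± 0.07 on the log2 scale (2.93-fold, SE; limma adjusted p = 2.1e-20). Over CA1 the cortical excess was 1.14 ± 0.07 (SE) and over CA3 1.31 ± 0.07, and both kept their direction on the deposited and the quantile scale.

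Scn8a (Nav1.6, the channel of the mature axon initial segment and nodes) had the same order. Scn8a ran from 10.35 through a median of 10.43 to 10.49 in cortex, from 9.36 through a median of 9.61 to 9.76 in amygdala, from 9.65 through a median of 10.02 to 10.15 in CA1 and from 9.85 through a median of 9.98 to 10.15 in CA3, with means of 9.61 ± 0.12 in amygdala, 10.42 ± 0.04 in cortex, 10.00 ± 0.14 in CA1 and 9.99 ± 0.09 in CA3. The excess of motor cortex over amygdala was 0.82 ± 0.04 on the log2 scale (1.77-fold, SE; limma adjusted p = 1.4e-18). CA1 and CA3 did not differ beyond their spread, with a difference of 0.01 ± 0.04 (SE; limma adjusted p = 0.88). The cortical excess of 0.44 ± 0.04 (SE) over CA3 turned to -0.14 on the deposited scale, so only its order against amygdala and CA1 was kept on the 3 scales. Scn2a (Nav1.2, of excitatory axons and dendrites) averaged 10.48 ± 0.10 in amygdala, 11.03 ± 0.07 in cortex, 10.69 ± 0.16 in CA1 and 10.64 ± 0.10 in CA3, again with cortex on top and amygdala at the bottom; its cortical excess over CA1 and CA3 was lost or turned as deposited (-0.01 and -0.19).

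Scn3a, the embryonic-type Nav1.3, had its highest mean in amygdala, with 9.04 ± 0.28 in amygdala, 8.72 ± 0.10 in cortex, 8.36 ± 0.23 in CA1 and 8.74 ± 0.19 in CA3. Its amygdala excess over cortex, 0.33 ± 0.08 (SE), was 0.12 (limma adjusted p = 0.24) without the striatum-rich amygdala arrays, and that over CA3, 0.30 ± 0.08, was 0.10 (adjusted p = 0.35). Amygdala exceeded CA1 by 0.70 ± 0.08 (SE; limma adjusted p = 1.5e-09), and CA3 exceeded CA1 by 0.40 ± 0.08. The atypical sodium sensor Scn7a (Nax) was highest in CA1, with 6.36 ± 0.09 in amygdala, 6.37 ± 0.11 in cortex, 6.90 ± 0.09 in CA1 and 6.55 ± 0.09 in CA3. CA1 exceeded CA3 by 0.35 ± 0.04 (limma adjusted p = 3.9e-10), amygdala by 0.54 ± 0.04 and cortex by 0.53 ± 0.04, each kept on all 3 scales.

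The 3 sodium genes best known outside the brain lay low on the array: Scn4a (skeletal muscle), Scn10a and Scn11a (both of sensory neurons) lay at percentiles 9.18, 13.2 and 18.6 of all probe sets by mean level. Scn4a averaged 5.24 ± 0.10 in amygdala, 5.68 ± 0.07 in cortex, 5.40 ± 0.07 in CA1 and 5.33 ± 0.12 in CA3. Scn10a averaged 5.34 ± 0.05 in amygdala, 5.75 ± 0.07 in cortex, 5.55 ± 0.07 in CA1 and 5.70 ± 0.06 in CA3. Scn11a averaged 6.05 ± 0.08 in amygdala, 5.78 ± 0.06 in cortex, 5.68 ± 0.07 in CA1 and 5.67 ± 0.07 in CA3, the only one of the 3 with its highest mean in amygdala. Their differences span at most 0.45, and whether such low values carry transcript or background was not tested.

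The sodium beta subunits held the widest contrasts of the set. Scn3b (beta3, prominent in hippocampus) was the only one of the 5 wide-ranging genes with its lowest mean in motor cortex. Scn3b ran from 9.18 through a median of 9.47 to 9.85 in cortex, from 9.33 through a median of 9.92 to 10.50 in amygdala, from 10.49 through a median of 10.90 to 11.15 in CA1 and from 10.86 through a median of 11.11 to 11.30 in CA3, with means of 9.83 ± 0.37 in amygdala, 9.51 ± 0.24 in cortex, 10.84 ± 0.20 in CA1 and 11.07 ± 0.14 in CA3. The hippocampal arrays all sat at or above 10.49, the cortical ones at or below 9.85. Cortex lay below CA3 by 1.55 ± 0.10 on the log2 scale (2.93-fold, SE; limma adjusted p = 8.0e-16). Cortex lay 1.30 ± 0.11 (SE) below CA1, and amygdala 1.24 ± 0.10 below CA3 and 0.98 ± 0.10 below CA1, in each case also as deposited and after quantile normalization. The amygdala excess over cortex, 0.32 ± 0.10, was lost without the amygdala arrays rich in striatal genes.

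Scn4b (beta4, a partner that supports resurgent sodium current and is abundant in striatum) had steady values in cortex and CA1 and split ones in amygdala and CA3. Scn4b ran from 9.41 through a median of 9.66 to 9.79 in cortex, from 6.92 through a median of 8.68 to 10.50 in amygdala, from 7.67 through a median of 7.92 to 8.13 in CA1 and from 7.17 through a median of 7.59 to 9.25 in CA3, with means of 8.62 ± 1.51 in amygdala, 9.64 ± 0.11 in cortex, 7.91 ± 0.14 in CA1 and 7.84 ± 0.65 in CA3. Cortex exceeded CA1 by 1.73 ± 0.36 on the log2 scale (3.31-fold, SE; limma adjusted p = 8.5e-05). This SE and p-value rest on a spread shared by all areas, the split amygdala and CA3 arrays included, and not on cortex and CA1 alone. The CA3 arrays at 9.25 (NSt-Con 2) and 8.85 (NSt-Vin 3) were also those with the highest striatal means in CA3, 8.62 and 8.07; without these 2 arrays cortex exceeded CA3 by 2.06 against 1.74 with them. Scn2b (beta2) averaged 9.65 ± 0.33 in amygdala, 9.90 ± 0.10 in cortex, 9.86 ± 0.07 in CA1 and 9.86 ± 0.10 in CA3, a span of 0.26, and its amygdala deficits were lost after quantile normalization. That amygdala mean joins arrays rich in striatal genes, at 9.95 on average, and the others, at 9.35.

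**Figure D2:**
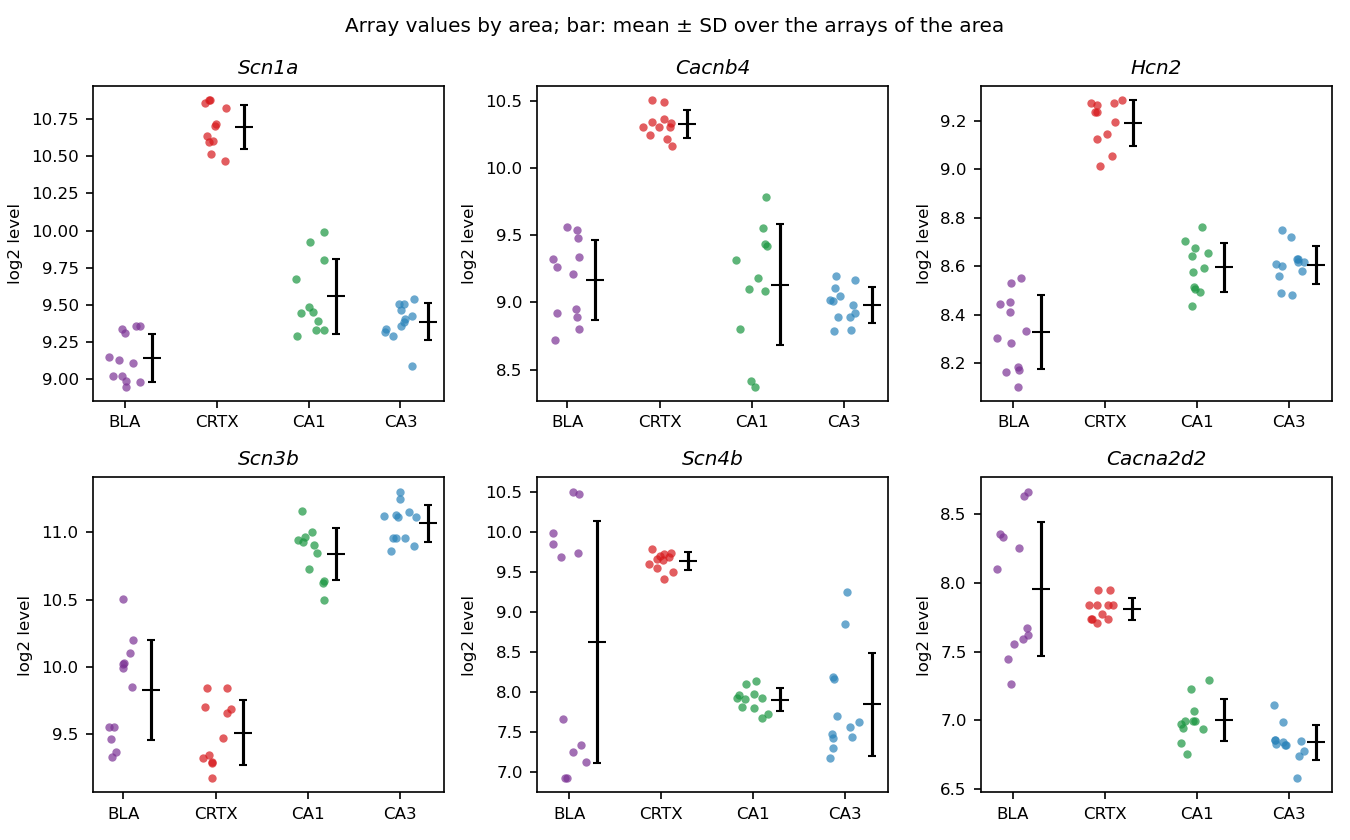
Log2 level (vertical axis) of Scn1a, Cacnb4, Hcn2, Scn3b, Scn4b and Cacna2d2 in each array, by area, with the mean and SD of the area beside the points (n = 12 amygdala, 11 motor cortex, 11 CA1, 12 CA3). Scn1a, Cacnb4 and Hcn2 stand apart in motor cortex, Scn3b is high in both hippocampal areas, and Scn4b and Cacna2d2 fall into separate clusters in amygdala.

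The presynaptic calcium alpha1 genes differed less. Cacna1a (P/Q-type, the main release channel of many synapses) averaged 8.63 ± 0.07 in amygdala, 9.17 ± 0.10 in cortex, 8.95 ± 0.11 in CA1 and 8.97 ± 0.10 in CA3. Every amygdala array lay below the other areas on the aligned scale alone. As deposited, its cortical lead over CA1 and CA3 turned. Cortex exceeded amygdala by 0.54 ± 0.04 on the log2 scale (1.46-fold, SE; limma adjusted p = 5.1e-16). Cacna1b (N-type) spanned only 0.21, with 8.81 ± 0.09 in amygdala, 8.96 ± 0.11 in cortex, 8.79 ± 0.09 in CA1 and 8.75 ± 0.08 in CA3. Cacna1e (R-type, found in dendrites and spines) averaged 10.04 ± 0.09 in amygdala, 9.72 ± 0.10 in cortex, 10.04 ± 0.14 in CA1 and 10.12 ± 0.12 in CA3, so cortex was lowest, 0.39 ± 0.05 (SE) under CA3 and 0.32 ± 0.05 under both amygdala and CA1.

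Of the L-type genes, Cacna1c (Cav1.2, the main neuronal L-type channel) was also lowest in cortex, with 8.17 ± 0.13 in amygdala, 7.78 ± 0.09 in cortex, 8.05 ± 0.28 in CA1 and 8.26 ± 0.16 in CA3. Cortex lay 0.48 ± 0.08 (SE) below CA3 (limma adjusted p = 9.0e-07). Cacna1d (Cav1.3) was highest in CA3, with 8.17 ± 0.13 in amygdala, 8.29 ± 0.14 in cortex, 8.25 ± 0.11 in CA1 and 8.45 ± 0.12 in CA3, and exceeded CA1 there by 0.19 ± 0.05 (adjusted p = 0.001). Cacna1f, a retinal channel, lay at percentile 16.6 of all probe sets by mean level and averaged 5.65 ± 0.04 in amygdala, 5.79 ± 0.05 in cortex, 5.63 ± 0.07 in CA1 and 5.80 ± 0.05 in CA3.

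The 3 T-type genes, which support burst firing, split. Cacna1g (Cav3.1) was highest in cortex, with 8.08 ± 0.23 in amygdala, 8.57 ± 0.10 in cortex, 8.07 ± 0.21 in CA1 and 7.87 ± 0.06 in CA3. Cacna1i (Cav3.3) was too, with 8.45 ± 0.16 in amygdala, 9.18 ± 0.14 in cortex, 8.87 ± 0.13 in CA1 and 8.70 ± 0.13 in CA3. Cacna1h (Cav3.2) was lowest there, with 8.66 ± 0.10 in amygdala, 8.19 ± 0.07 in cortex, 8.85 ± 0.24 in CA1 and 8.92 ± 0.18 in CA3, and its highest cortical array (8.28) lay below its lowest array elsewhere (8.53). The cortical deficit against CA3 was 0.73 ± 0.07 on the log2 scale (1.66-fold, SE; limma adjusted p = 7.3e-12). Cacna1g exceeded its CA3 level in cortex by 0.70 ± 0.07 (SE) and Cacna1i by 0.48 ± 0.05; as deposited the first kept its direction (0.12) and the second did not (-0.10).

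Auxiliary calcium subunits varied in their own way. Cacnb4 (beta4, whose loss causes epilepsy and ataxia in mice) shared the cortical excess of Scn1a but not the order of the other areas. Cacnb4 ran from 10.16 through a median of 10.30 to 10.51 in cortex, from 8.72 through a median of 9.24 to 9.56 in amygdala, from 8.37 through a median of 9.18 to 9.78 in CA1 and from 8.79 through a median of 8.99 to 9.20 in CA3, with means of 9.17 ± 0.30 in amygdala, 10.33 ± 0.10 in cortex, 9.13 ± 0.45 in CA1 and 8.98 ± 0.13 in CA3. Every cortical array was above 10 and every other array below it. Cortex exceeded CA3 by 1.35 ± 0.11 on the log2 scale (2.54-fold, SE; limma adjusted p = 1.2e-13). Amygdala, CA1 and CA3 did not pass against each other, with differences of 0.03 to 0.18 and SEs of 0.10 to 0.11. Cacnb1 averaged 8.94 ± 0.13 in amygdala, 9.21 ± 0.08 in cortex, 9.03 ± 0.11 in CA1 and 9.02 ± 0.13 in CA3, Cacnb2 averaged 8.59 ± 0.20 in amygdala, 8.69 ± 0.06 in cortex, 8.71 ± 0.16 in CA1 and 8.62 ± 0.15 in CA3, and Cacnb3 averaged 9.14 ± 0.11 in amygdala, 9.13 ± 0.16 in cortex, 9.02 ± 0.25 in CA1 and 9.03 ± 0.19 in CA3; the last 2 passed in no pair of areas.

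Cacna2d2 (alpha2delta-2) was the only gene more than a doubling higher in amygdala than in another area. Cacna2d2 ran from 7.71 through a median of 7.83 to 7.95 in cortex, from 7.26 through a median of 7.89 to 8.66 in amygdala, from 6.75 through a median of 6.99 to 7.29 in CA1 and from 6.58 through a median of 6.83 to 7.11 in CA3, with means of 7.96 ± 0.49 in amygdala, 7.81 ± 0.08 in cortex, 7.00 ± 0.15 in CA1 and 6.84 ± 0.13 in CA3. Amygdala exceeded CA3 by 1.12 ± 0.10 on the log2 scale (2.17-fold, SE; limma adjusted p = 8.9e-12). Without the 6 amygdala arrays rich in striatal genes the excess was 0.69. Cacna2d1 (alpha2delta-1, a gabapentin-binding subunit) averaged 10.06 ± 0.17 in amygdala, 10.43 ± 0.09 in cortex, 10.07 ± 0.15 in CA1 and 10.30 ± 0.10 in CA3. Cacna2d3 averaged 9.99 ± 0.43 in amygdala, 10.64 ± 0.14 in cortex, 10.31 ± 0.25 in CA1 and 10.46 ± 0.11 in CA3, with cortex 0.66 ± 0.12 (SE) above amygdala. Amygdala minus cortex for Cacna2d3 was -1.15 without the striatum-rich amygdala arrays.

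The 3 HCN genes of the set had their highest aligned means in cortex, which held as deposited for Hcn2 alone and there by 0.0045 over CA3. Hcn2, the broadly expressed subunit of cortex and thalamus, had the smallest spread relative to its contrast. Hcn2 ran from 9.02 through a median of 9.23 to 9.29 in cortex, from 8.10 through a median of 8.32 to 8.55 in amygdala, from 8.43 through a median of 8.59 to 8.76 in CA1 and from 8.48 through a median of 8.61 to 8.75 in CA3, with means of 8.33 ± 0.15 in amygdala, 9.19 ± 0.09 in cortex, 8.60 ± 0.10 in CA1 and 8.61 ± 0.08 in CA3. Cortex exceeded amygdala by 0.87 ± 0.04 on the log2 scale (1.83-fold, SE; limma adjusted p = 2.1e-21). CA1 and CA3 did not differ beyond their spread (-0.01 ± 0.04, SE; limma adjusted p = 0.79). Hcn4 averaged 6.01 ± 0.10 in amygdala, 6.53 ± 0.10 in cortex, 6.35 ± 0.03 in CA1 and 6.23 ± 0.07 in CA3 and Hcn3 averaged 7.12 ± 0.14 in amygdala, 7.40 ± 0.17 in cortex, 7.27 ± 0.11 in CA1 and 6.97 ± 0.10 in CA3; Hcn3 exceeded its CA3 level in CA1 by 0.31 ± 0.06 (SE; adjusted p = 1.5e-05), and its cortical excess over CA1, 0.12 ± 0.06, did not pass (adjusted p = 0.062). As deposited, cortex lay below CA1 and CA3 in Hcn3 (-0.23 and -0.16) and in Hcn4 (-0.17 and -0.28). The cortical excess of Hcn2 over CA3 shrank from 0.59 to 0.0045 on the deposited scale, while that over amygdala was 0.55 there.

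By pairs of areas, amygdala against motor cortex passed for 26 of the 30 genes (79.4% of all probe sets), 6 higher in amygdala (23.0%) and 20 lower (56.4%). Both genes at a difference of -1 or less, Scn1a and Cacnb4, were lower in amygdala (1.1% of all), and none reached 1 (0.527%). Amygdala against CA1 passed for 19 genes (75.0%), 4 higher (23.7%) and 15 lower (51.3%), with none at 1 or more in size (0.362% higher, 0.647% lower). Amygdala against CA3 passed for 23 (75.9%), 6 higher (8212 of 27342 probe sets, 30%) and 17 lower (45.9%); Cacna2d2 reached 1 (0.395%) and Scn3b -1 (0.79%).

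Motor cortex exceeded CA1 in 20 genes (40.6%) and lay below it in 5 (24.9%), 25 passing in all (65.5%). Scn4b, Cacnb4 and Scn1a reached 1 (0.439%) and Scn3b -1 (0.428%). The same 4 genes did so against CA3 (0.849% and 0.812%), where 23 genes passed (75.4%), 17 higher in cortex (49.6%) and 6 lower (25.8%). CA1 against CA3 passed for 13 genes (62.1%), 6 higher (37.1%) and 7 lower (25.1%), all under 1 in size (0.0549% and 0.0585% of all reached it). The largest were Scn3a (CA1 lower by 0.40) and Scn7a (CA1 higher by 0.35).

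How many genes fell on each side depended on the scaling. The median difference of all probe sets moved from -0.14 aligned to 0.19 as deposited for amygdala against cortex, from -0.06 to -0.32 for amygdala against CA3, from 0.05 to -0.30 for cortex against CA1, from 0.09 to -0.50 for cortex against CA3 and from 0.03 to -0.21 for CA1 against CA3. As deposited the higher and lower counts became 13 and 12 for amygdala against cortex, 3 and 18 against CA1, 2 and 23 against CA3, 5 and 17 for cortex against CA1, 4 and 23 against CA3, and 1 and 22 for CA1 against CA3. After quantile normalization they were 8 and 13, 11 and 10, 12 and 11, 18 and 5, 15 and 8, and 5 and 8 in the same order. Genes that passed in the same direction with quantile normalization, without arrays rich in striatal or choroid plexus genes, without the pool block and, for amygdala against cortex, within 1 scan day, numbered 17 of 26, 12 of 19, 14 of 23, 22 of 25, 21 of 23 and 11 of 13.

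Within the amygdala, Scn4b varied more between punches than between any 2 areas. The Scn4b level was 9.98, 7.66 and 7.12 in NSt-Con, 9.69, 7.34 and 7.25 in NSt-Vin, 10.47, 10.50 and 6.92 in St-Con, and 9.74, 9.85 and 6.92 in St-Vin (replicates in order). Both lineages of dyad groups 1, 4 and 5 were at 9.69 or above and those of groups 2, 3 and 6 at 7.66 or below, so the split ran across lineage and stress. The striatal list mean split the same way, 9.66 to 10.12 in the 6 high arrays and 7.46 to 8.26 in the other 6. Scn4b was 10.04 on average in the first and 7.20 in the second, a 7.14-fold gap at the 99.99th percentile of all probe sets. The arrays were sorted by the striatal genes, so these values are a description without a test.

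Further members moved with that split. Cacna2d2 was 8.10 to 8.66 in the high arrays and 7.26 to 7.67 in the others. Cacna2d3 was 10.20 to 10.55 against 9.39 to 9.85, Scn2b 9.72 to 10.14 against 9.25 to 9.54, and Scn3a 9.15 to 9.41 against 8.64 to 8.88. With Cacnb4 and Cacna1c, 7 of the 30 genes lay wholly higher in the striatum-rich arrays, against 3.37% of all probe sets, and Cacna1d alone lay wholly lower (7.98 to 8.17 against 8.20 to 8.37; 1.72% of all). Scn8a (9.62 and 9.59 on average), Scn2a (10.48 and 10.48) and Cacna1a (8.63 and 8.63) hardly differed. What part the striatal content has in these differences was not tested.

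**Figure D3:**
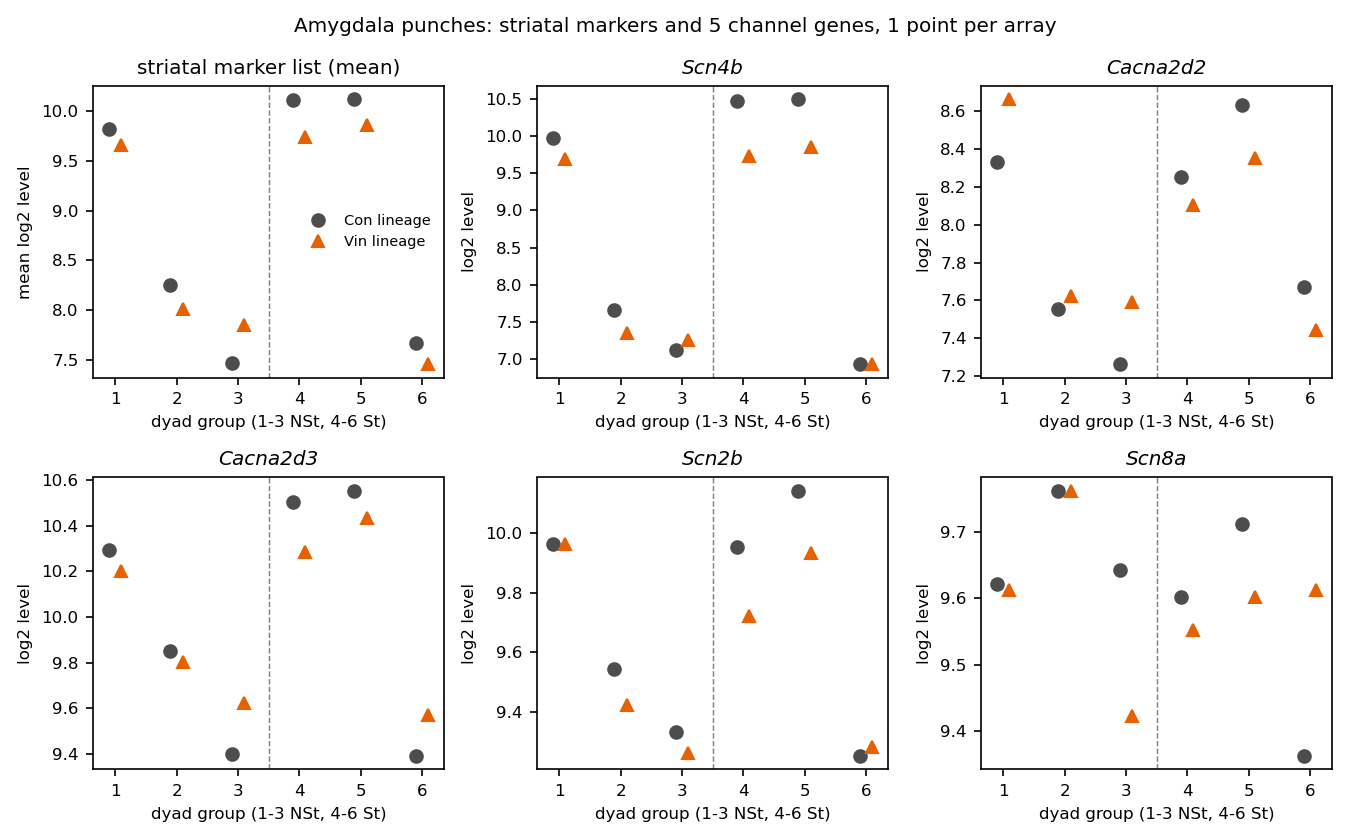
Amygdala arrays by dyad group (horizontal axis; groups 1 to 3 not stressed, 4 to 6 stressed), with the mean log2 level of the striatal marker list and the log2 levels of Scn4b, Cacna2d2, Cacna2d3, Scn2b and Scn8a on the vertical axes; circles are Con and triangles Vin pools. Groups 1, 4 and 5 are high in both lineages for the marker list and for each gene except Scn8a.

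The comparisons of amygdala with hippocampus rested on those arrays for Scn4b. Amygdala exceeded CA1 by 0.77 ± 0.35 (SE; limma adjusted p = 0.046) and CA3 by 0.78 ± 0.34 (adjusted p = 0.038). Without the 6 striatum-rich arrays the differences were -0.79 (adjusted p = 0.00075) and -0.74 (adjusted p = 0.0011), so the order of the areas turned.

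In CA1, Cacnb4 was the most variable gene. The Cacnb4 level was 9.42, 8.80 and 8.41 in NSt-Con, 9.43, 9.10 and 8.37 in NSt-Vin, 9.31 and 9.18 in St-Con, and 9.78, 9.55 and 9.08 in St-Vin (replicates in order). The lowest values, 8.37 and 8.41, came from both pools of dyad group 3, and Fezf2 was lowest in the same 2 arrays (7.38 and 7.48). Fezf2 and Cacnb4 were both highest in St-Vin 1 (9.10 and 9.78). Scn1a in CA1 ran from 9.29 to 9.99, with the highest values in both pools of dyad group 1 (9.99 and 9.92). How the content of each punch bears on these values was not tested.

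Of 32 partner genes, listed because their products bind, anchor, modify or are related to these channels, 28 had a single-symbol probe set. The list includes the sodium leak channel gene Nalcn and the Cacng genes. Against motor cortex, amygdala was higher for 7, lower for 19 and did not pass for 2. The widest were Stac2, a regulator of L-type channels (amygdala lower by 2.07 ± 0.11, SE), Cacng2 (stargazin, an AMPA receptor partner, lower by 1.36 ± 0.07) and Pex5l (TRIP8b, the HCN trafficking subunit, lower by 1.02 ± 0.13), whereas Cacng5 was higher by 1.08 ± 0.14. Motor cortex exceeded CA1 for 14 and CA3 for 15, with 5 lower in each; Stac2 led both (1.64 and 1.92). CA1 exceeded CA3 for 8 and lay below it for 6. These counts sit on the same background as those above.

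Whether ancestral vinclozolin or adolescent restraint changed these channels was asked within each area, on 4 groups of 2 or 3 arrays. No channel gene passed an adjusted p of 0.05 (limma) in any of 7 contrasts in each area, in the 3 contrasts of the mean of the areas, or in the tests of a lineage or stress effect that differs between areas. The share of all probe sets that passed was 0.636% for stress in Con in motor cortex, 0.505% for stress in Vin in CA1, 0.00731% for stress averaged over lineages in motor cortex, 0.457% for a stress effect differing between areas and 0.0% in the others. At an unadjusted p under 0.05 the most genes were 11 of 30 for stress in Vin in CA3, where 14.0% of all probe sets did so, and 7 of 30 for stress in Vin (19.3% of all) and stress averaged over lineages (16.9%) in CA1, for lineage without stress (5.38%) and the interaction (6.6%) in CA3, for the interaction in the mean of the areas (4.57%), and for a stress effect differing between areas (4824 of 27342 probe sets).

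**Figure D4:**
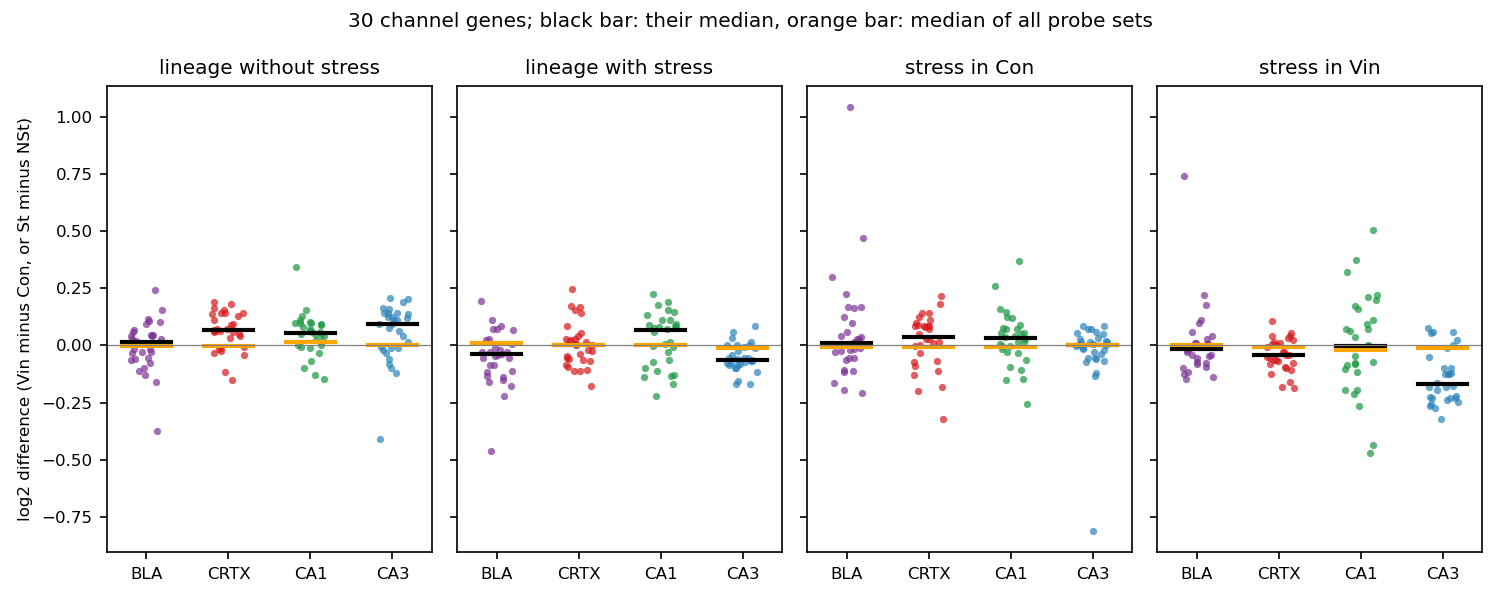
Log2 difference of each of the 30 genes (points) for Vin minus Con without and with stress and for St minus NSt in the Con and the Vin lineage, by area; the black bar is the median of the 30 genes and the orange bar that of all probe sets. The points scatter around 0, with the black bar at -0.17 for stress in Vin in CA3. The outlying amygdala points are Scn4b, except for lineage without stress. There Scn3b lay furthest from 0, mainly through dyad group 2 (-0.95).

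In CA3, 24 of the 30 genes had a lower mean in stressed than in unstressed Vin pools, against 54.3% of all probe sets, and none of them passed. The median difference was -0.17 against -0.01 over all probe sets, and -0.08 after quantile normalization within CA3. Over the 28 partner genes described above the median was -0.14, so the shift was not particular to the channel genes. Cacna1a was 9.11, 9.19 and 9.04 in NSt-Vin and 8.94, 8.85 and 8.87 in St-Vin, a difference of -0.23 ± 0.05 (SE; limma adjusted p = 0.24). Its NSt-Con arrays (8.86, 8.94 and 8.93) and St-Con arrays (8.97, 8.90 and 9.02) lay between 8.86 and 9.02, so the unstressed Vin arrays were the ones set apart. Cacna1e was 10.30, 10.22 and 10.29 in NSt-Vin and 10.13, 10.09 and 9.87 in St-Vin (-0.24 ± 0.07, adjusted p = 0.24). Cacna2d3 was 10.67, 10.60 and 10.54 against 10.40, 10.42 and 10.32 (-0.22 ± 0.06, adjusted p = 0.24), again without overlap.

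The same unstressed Vin arrays enter the CA3 comparison of lineages without stress, where the median was 0.09 against 0.003 and 7 of 30 genes had an unadjusted p under 0.05 (5.38% of all). The median over the partner genes was 0.097 in that comparison. There Cacna1a was higher in Vin by 0.20 ± 0.05 (SE; limma adjusted p = 0.85), Cacna1e by 0.19 ± 0.07 and Scn3b by 0.21 ± 0.08 (adjusted p = 0.85 for both). Quantile normalization cut the count at an unadjusted p under 0.05 for stress in Vin from 11 to 2 (8.26% of all). Without NSt-Vin 1 the stress median was -0.11 with 7 genes, and without the 2 CA3 arrays rich in striatal genes -0.17 with 13.

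In motor cortex, Hcn3 came nearest to the threshold. Its level was 7.50, 7.55 and 7.51 in NSt-Con, 7.01, 7.27 and 7.31 in St-Con, 7.45 and 7.54 in NSt-Vin, and 7.41, 7.58 and 7.34 in St-Vin. All 3 stressed Con arrays lay below the unstressed ones, by 0.32 ± 0.08 (SE; limma adjusted p = 0.079), while the Vin groups overlapped. With the averaged array counted as a sample the adjusted p was 0.043. All stressed cortical arrays, and 1 unstressed one, were scanned on another day. With the scan day as a block the difference was -0.41. That fit takes the scan-day effect from NSt-Vin 1 against NSt-Vin 3 alone, so it cannot separate scan day from stress in Con. With stress, Vin exceeded Con in Hcn3 by 0.25 ± 0.08 and in Scn3a by 0.17 ± 0.06, and without stress in Cacna1h by 0.16 ± 0.06 (adjusted p = 0.83 for each).

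In CA1, Cacna2d2 was 6.83, 6.94 and 6.75 in NSt-Vin and 7.29, 7.22 and 6.97 in St-Vin, without overlap (0.32 ± 0.08, SE; limma adjusted p = 0.099). Cacna2d3 was 10.36, 10.55 and 10.54 against 9.94, 9.80 and 10.40 (-0.44 ± 0.14, adjusted p = 0.15), overlapping through St-Vin 3. Without that array Cacna2d2 (0.42, adjusted p = 0.036) and Cacna2d3 (-0.61, adjusted p = 0.036) passed. The CA1 St-Vin arrays had a scan day of their own among the arrays used. That scan day cannot be told apart from stress in Vin or from the lineage difference under stress. It also enters the lineage difference over both stress conditions. Cacnb3 was the gene nearest to a lineage effect in CA1, higher in Vin by 0.26 ± 0.11 over both stress conditions (adjusted p = 0.99), and by 0.26 ± 0.06 (adjusted p = 0.11) with the dyad group as a block. With that block, Cacnb4 (0.42 ± 0.09) and Cacna2d3 (-0.40 ± 0.09) came nearest to a lineage difference under stress in CA1 (adjusted p = 0.076 and 0.074). Those cage-mate pairs join Con and Vin arrays of different scan days, so the block does not separate lineage from scan day there.

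In the amygdala no channel gene reached an unadjusted p of 0.05 in any of the 7 contrasts fitted without regard to cage mates. With the dyad group as a block, 3 of 30 did so for lineage without stress (5.21% of all), 5 with stress (5.64%), 4 for lineage averaged over stress (7.33%) and 3 for the interaction (3.37%), and none passed after adjustment. Scn3a was lower in the Vin pool of all 6 amygdala dyad groups, by 0.07 to 0.25, and the averaged difference with the block was -0.15 ± 0.04 (SE; limma adjusted p = 0.41). Scn3b was also lower in all 6, by 0.04 to 0.95 (-0.25 ± 0.10, adjusted p = 0.64). How many of all probe sets had the same sign in all 6 was not counted. The nearest to a stress effect were Cacna2d1 (-0.16 ± 0.09, SE) and Cacna1b (-0.09 ± 0.05, limma adjusted p = 1.0 for both), and both became 0.01 without the striatum-rich arrays. Scn4b had the largest stress difference in Con, 1.04 on the log2 scale, with arrays from 6.92 to 10.50 within St-Con alone. Averaged over areas in the 10 pools complete in all 4, the interaction of lineage and stress was -0.25 ± 0.06 (SE) for Cacna2d3 and 0.18 ± 0.05 for Hcn3 (adjusted p = 1.0 for both); its median over the 30 genes was -0.09 against -0.01 over all probe sets. Over the partner genes that median was -0.08. Of the partner genes, Cacng3 alone passed, for a stress effect that differs between areas (adjusted p = 0.043).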

How the data were processed

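RNA was measured on 1-colour Affymetrix whole-transcript arrays. The authors deposited log2 values made with RMA in Partek, per the submitters' processing notes; tool versions and the build behind the probe sets are not given in the sources used here. Arrays have no read depth, so their number limits the precision. The pools are separate sets of animals.

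Areas were compared with limma 3.58.1 (R 4.3.3) after adding one constant per area, with the pool as a fixed block, since the labels say that the same animals supplied all areas. Same-pool deviations of 2 areas correlated weakly (medians from -0.017 to 0.15). Lineage and stress were tested within areas without a block. Cage mates' pools deviated together (correlation over 0.1) in 6 of 6 amygdala, 3 of 5 cortical, 5 of 5 CA1 and 5 of 6 CA3 dyad groups. Both pools of a dyad group shared the stress condition, so for stress averaged over lineages they are not independent samples. P-values of that contrast can therefore be too small, and no fit allowed for this. P-values were adjusted over 27342 probe sets at a threshold of 0.05.

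Symbols come from the platform annotation: 15097 probe sets carry 1, 323 several and 11922 none. Named were, per pair of areas, up to 5 genes each way at a difference of 1 or more (all that passed where fewer than 4 reached 1), and otherwise the 3 smallest p-values; area means are given for every gene. The genes, marker lists and comparisons were chosen with earlier results of these data known. Alternatives were other scalings and filters, the blocks, all 48 arrays and left-out arrays; leaving out the striatum-rich CA3 arrays was added after seeing the data. The script was tested on simulated data.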

Additional observations from a re-analysis of the deposited data

Results flagged for a closer look

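In 13 combinations of gene and area, the difference of Vin from Con had one sign in every cage-mate pair without stress and the other sign in every pair with stress, on 2 or 3 pairs each. How many of all probe sets showed this was not counted. With so few pairs such a pattern can arise by chance, and it was not tested as such; the interaction of lineage and stress (limma) passed for none of these genes, with adjusted p of at least 0.75 in any area, or of at least 0.115 with the dyad group as a block.

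From positive without stress to negative with stress went Cacna1a in CA1 (0.057 to -0.17) and CA3 (0.20 to -0.077), Cacna1c in CA1 (0.08 to -0.30), Cacnb2 in CA1 (0.093 to -0.29), Scn3b in CA1 (0.10 to -0.12), Cacna2d2 in amygdala (0.24 to -0.22), Hcn2 in amygdala (0.093 to -0.15), Scn2b in motor cortex (0.12 to -0.063) and Scn4b in motor cortex (0.14 to -0.18). The opposite turn was seen for Cacna2d2 in CA1 (-0.13 to 0.23), Hcn3 in CA1 (-0.15 to 0.10), Cacna1e in motor cortex (-0.11 to 0.15) and Scn7a in motor cortex (-0.09 to 0.043). All values are mean log2 differences over the pairs. Cacna1a did so in both hippocampal areas, and Cacna2d2 turned in opposite directions in amygdala and CA1. The stressed pairs of CA1, and the pair of dyad group 3 in motor cortex, joined Con and Vin arrays of different scan days. The part of scan day in these turns was not tested.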

How the results depend on the processing

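The limits are the scaling between areas, scan days that coincide with areas or groups, mixed tissue in single punches, and 2 or 3 arrays per group. Counts of genes passing between areas in either direction stayed within 1.5 times the count given under the alternatives run, except that 23 genes passed for CA1 against CA3 as deposited; the split into higher and lower moved further with the scaling, as given above. Of the genes that passed, those with the opposite sign as deposited numbered 6 for amygdala against cortex, 0 against CA1 and 2 against CA3, 10 for cortex against CA1 and 11 against CA3, and 4 for CA1 against CA3. Among genes chosen by the naming rule, Cacna1g turned for amygdala minus CA3 (-0.053), and for CA1 minus CA3 so did Cacna1g (-0.026), Scn1a (-0.060) and Cacna1i (-0.071). Without the striatum-rich amygdala arrays Scn4b turned for amygdala minus CA1 (-0.79) and minus CA3 (-0.74), and the amygdala stress differences of Cacna2d1 and Cacna1b became 0.01 each. Without the replicate block (the pool), Scn4b for amygdala minus CA1 (0.72, limma adjusted p = 0.074) and Scn3b for CA1 minus CA3 (-0.23, adjusted p = 0.060) no longer passed. No other gene lost its call. Newly passing were 1 gene for cortex minus CA1 and 1 for cortex minus CA3. For lineage and stress, 0 genes passed in all but these cases: 1 for stress in Con in motor cortex with all 48 arrays; for stress in Vin in CA1, 2 in a single fit of 16 groups and 0 to 2 with 1 array left out (2 without St-Vin replicate 3); 1 for stress averaged in CA1 in the single fit; and 0 to 2 for a stress effect differing between areas with 1 dyad group left out (2 without group 1, 1 without group 6). With the dyad group as a replicate block, fitted for lineage and the interaction only, 0 genes passed, so it changed no call there. The cause of these changes was not tested.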
